A study of Rattus norvegicus with 24 samples.

Results

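Elastic fibre and crosslinking genes were followed across the lungs of rats that inhaled air, crystalline silica, cigarette smoke or both. The set held 10 genes named by symbol, which were Eln, Fbn1, Fbln5, Efemp2, Ltbp4, Mfap4, Emilin1, Lox, Loxl1 and Loxl2, and all 10 were found among the 30043 genes of the count table. Of the 10, 9 had enough counts to be tested together with 13322 genes in all, and Mfap4 did not. Bulk RNA was sequenced from a piece of lung of 24 male F344/DuCrl rats, an inbred strain, bought at an age of 3 months, with 6 rats in each of 4 groups. Air rats breathed air in a whole-body chamber for 29 weeks. Silica rats breathed Min-U-Sil 5 at 15 mg/m3 for 6 h a day on 5 days of week 3, and otherwise air. Smoke rats received cigarette smoke for 3 h a day on 2 days a week, at 40 mg/m3 in week 1 and at 80 mg/m3 afterwards, with air in week 3. Combined rats received smoke by the same schedule, at 45 mg/m3 in week 1, and silica in week 3. Rats were housed 2 to a cage, and which rats shared a cage is not given. Libraries are named by group and by a number in order of deposit, which pairs nothing.

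An elastic fibre is built from a core of crosslinked elastin on a scaffold of fibrillin microfibrils, and it gives alveolar walls, airways and vessels their recoil. Secreted tropoelastin is gathered into globules and laid onto microfibrils by short fibulins and the latent TGF-beta binding protein LTBP4, and lysyl oxidases, which need copper, then oxidise lysines so that the chains bond to each other. Most elastin is deposited while the lung grows, the fibre turns over slowly in the adult, and its breakdown by macrophage and neutrophil proteases is a textbook feature of emphysema.

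Library depth limited what could be read. The shallowest library, smoke 2, held 21629 counts and the deepest, air 6, held 4687805, around a median of 2335358. Smoke 2 held 2 counts in all for the 10 genes, 1 of Fbn1 and 1 of Ltbp4, and 55.97% of its counts were haemoglobin. There 3 counts are 138.7 per 1000000 of all counts, so its zeros only place a gene below about that level. CPM in this report are counts per 1000000 counts of tested genes, scaled by TMM, and 1 count in smoke 2 is 52.95 CPM. Silica 4 was the next shallowest at 280484 counts, where 3 counts are 10.7 per 1000000 of all counts. Mmp12, the macrophage elastase, stood at 3.20 CPM in silica 1 against 57.4 to 75.8 CPM in the other 5 silica libraries, and at 57.2 CPM in the library labelled smoke 1 against 0 to 11.8 CPM in the other smoke libraries. The main results are also given without air 6, silica 1, smoke 1 and smoke 2, called the 20-library setting here. Air 6 is left out for its high matrix genes, silica 1 and smoke 1 for their Mmp12, and smoke 2 for its depth. Silica 4 is kept. The choice rests on values of these same data, so calls at this setting are no separate evidence.

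Air 6, set apart beforehand because it is high in matrix genes, was the highest of the 24 libraries for 7 of the 9 tested members. Its 10 genes took 0.3301% of all counts, against 0.1372% to 0.1616% in the other 5 air libraries. Relative to the median of those 5, air 6 was 4.19-fold for Fbn1, 2.96-fold for Eln, 3.01-fold for Loxl2, 2.73-fold for Loxl1, 2.64-fold for Lox, 2.48-fold for Fbln5 and 1.73-fold for Emilin1. Efemp2 stood at 1.17-fold and Ltbp4 at 0.824-fold, the lowest air value of that gene. Thus 6 of 9 members were more than 2-fold higher in air 6, as were 3.27% of all genes tested. In the same library the median fold was 2.30 over 12 collagen and general matrix genes, 2.45 over 8 smooth muscle markers, 2.58 over 5 cardiac muscle markers and 3.18 over 6 airway epithelial markers. In these 4 lists, air 6 was above every other air library for 11, 8, 2 and 5 genes respectively. The median fold was 1.71 over 7 pericyte, 1.05 over 10 lung fibroblast and 0.921 over 8 endothelial markers. It was 0.347 over 7 mesothelial, 0.585 over 4 macrophage and 0.803 over 10 alveolar epithelial markers. Col1a1, a chain of collagen I, stood at 461 CPM in air 6 and at 42.82 to 118.5 CPM in the other air libraries. The part of these cell types in the high matrix values of air 6 was not tested. In bulk tissue, more cells of a type and more RNA per cell cannot be told apart.

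**Figure D1:**
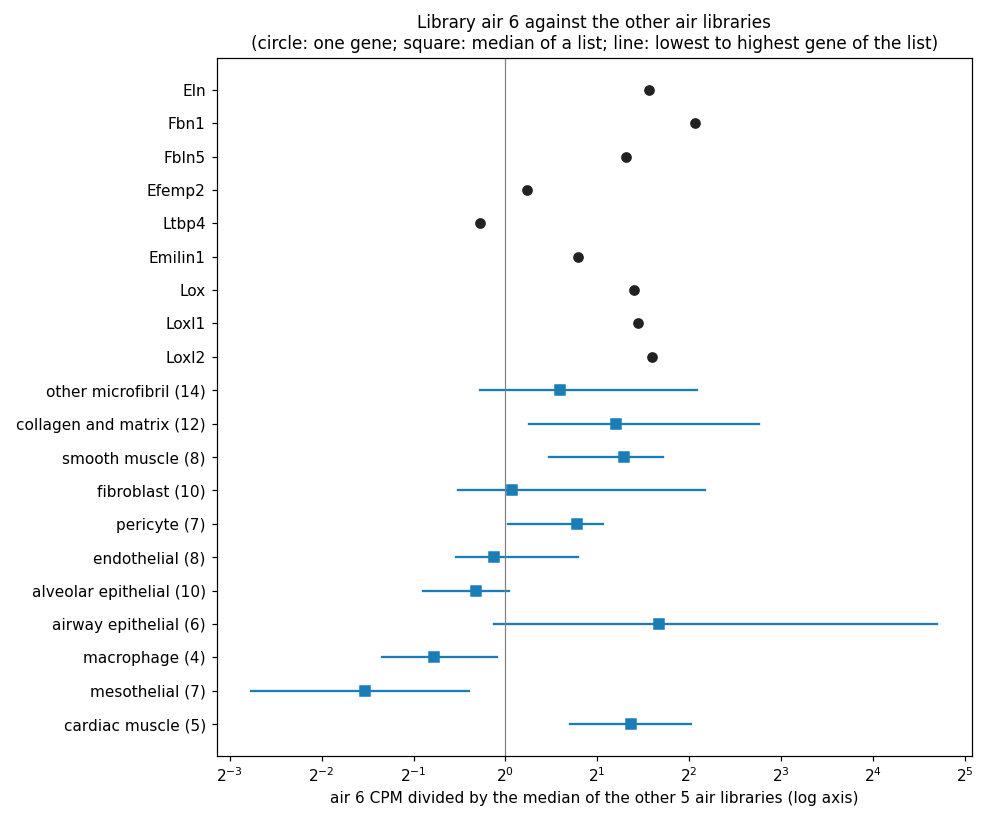
Level in air 6 divided by the median of the other 5 air libraries, on a log axis, for the 9 tested members (circles) and for the median gene of 11 lists (squares, with a line from the lowest to the highest gene and the number of genes tested in brackets). Fbn1 lies farthest right among the members at 4.19-fold, and Ltbp4 is the only member left of 1.

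With all 24 libraries, 5 of the 9 tested members were lower in the combined group than in air at an adjusted p under 0.05, and none was higher. These were Eln, Fbn1, Fbln5, Ltbp4 and Loxl1. Of all genes tested, 22.4% were called in that comparison and 10.8% were called lower. The median log2 difference was -0.52 over the 9 members and -0.01 over all genes. Without air 6, 3 of the 9 were called lower, namely Eln, Ltbp4 and Fbln5, where 9.58% of all genes were called lower, and the median over the members was -0.17. Under each of the 24 fits that left out 1 library, and under all 7 other settings tried, Eln, Fbln5 and Ltbp4 were called lower.

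**Figure D2:**
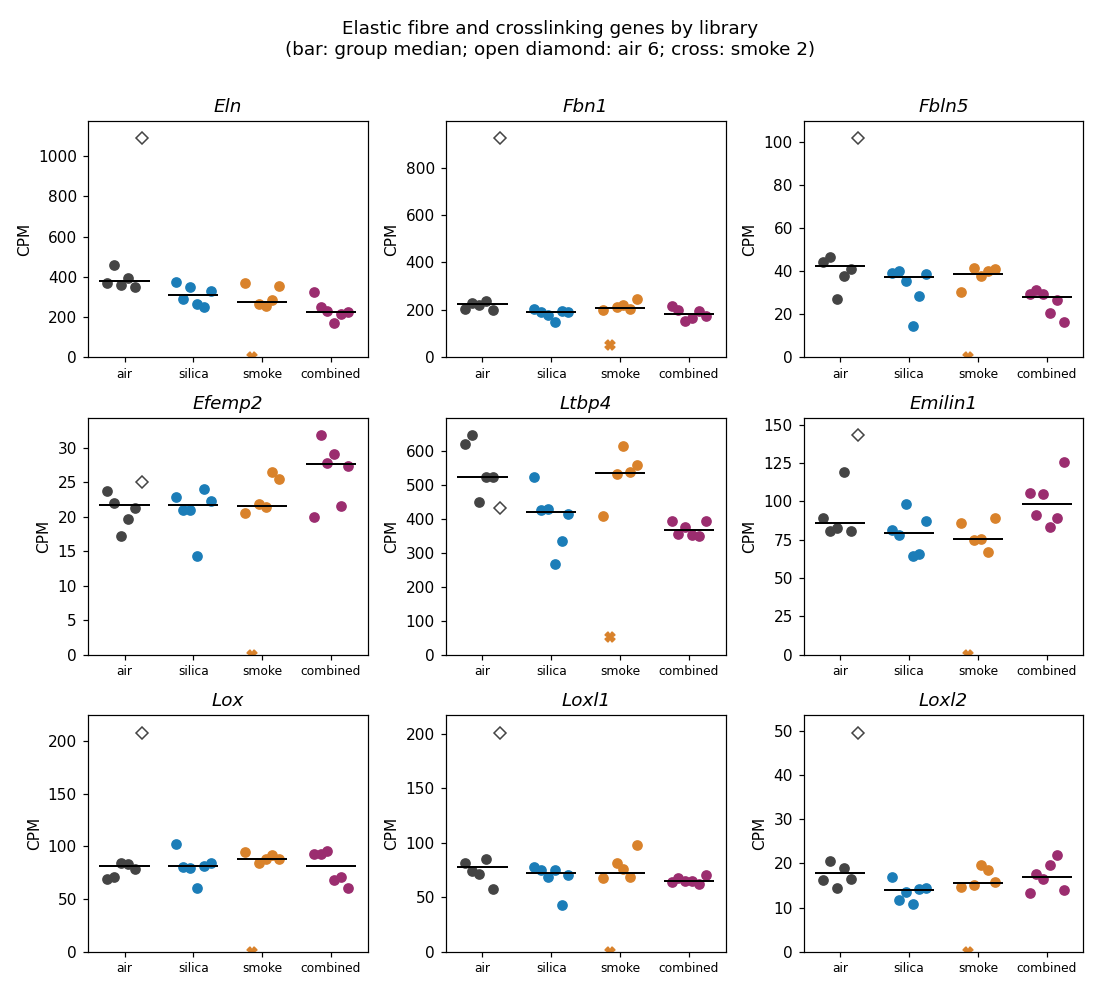
CPM of the 9 tested members in each of the 24 libraries, by group, on linear axes from 0. Air 6 (open diamond) is the highest point for 7 of the 9 genes, smoke 2 (cross) lies at 0 or, for Fbn1 and Ltbp4, at 52.95 CPM, and the combined libraries of Eln and Ltbp4 all lie below every air library.

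Eln encodes tropoelastin, the core of the fibre. Eln ran from 350 CPM through a median of 381.5 to 1088 CPM in air, from 252.4 through 309.6 to 375.5 CPM in silica, from 0 through 276.5 to 369 CPM in smoke, and from 171.8 through 227 to 323.4 CPM in the combined group. Every combined library was below every air library, while silica and smoke each overlapped air. Without air 6, air still ran from 350 to 460.6 CPM, all above the combined group. Eln and Ltbp4 were the 2 of 9 members whose combined and air libraries did not overlap with the combined group lower, a pattern held by 4.93% of all genes tested, or 6.62% without air 6. In the combined group Eln fell by 53.1% with all 24 libraries, a log2 difference of -1.09 ± 0.22 (SE, adjusted p = 0.000563). Without air 6 it fell by 38.5%, a log2 difference of -0.70 ± 0.14 (adjusted p = 0.000473). At the 20-library setting it was -0.69 ± 0.11 (adjusted p = 1.37e-05).

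Fbn1 encodes fibrillin-1, the main protein of the microfibril. Fbn1 ran from 201.2 through 224.7 to 923.5 CPM in air, from 147.1 through 192.7 to 202.3 CPM in silica, from 52.95 through 207.3 to 245.6 CPM in smoke, and from 153.5 through 184.3 to 216.4 CPM in the combined group. Apart from air 6 and smoke 2 all libraries lay between 147.1 and 245.6 CPM, and combined 1 alone reached into the air range. The log2 difference of combined from air was -0.88 ± 0.26 (adjusted p = 0.0136) with air 6 and -0.24 ± 0.09 (adjusted p = 0.0582) without it, so the size of the difference rests largely on that library. At the 20-library setting, which also lacks air 6, Fbn1 was called lower at -0.24 ± 0.08 (adjusted p = 0.0247). With only the air and combined libraries in the model the adjusted p was 0.0581, and with weighted limma voom it was 0.0734. DESeq2 gave no adjusted p for Fbn1 in this or any other comparison.

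The assembly glycoproteins did not move together. Fbln5, or fibulin-5, tethers elastin to cells and to microfibrils. Fbln5 ran from 27.34 through 42.64 to 101.8 CPM in air, from 14.35 through 37.13 to 40.26 CPM in silica, from 0 through 38.78 to 41.45 CPM in smoke, and from 16.53 through 27.84 to 31.4 CPM in the combined group. The combined libraries overlapped air only through air 3, the lowest air library. Fbln5 fell by 48.5% in the combined group with all 24 libraries, a log2 difference of -0.96 ± 0.22 (adjusted p = 0.00248). Without air 6 it fell by 32.1%, a log2 difference of -0.56 ± 0.15 (adjusted p = 0.00903). At the 20-library setting the difference was -0.55 ± 0.15 (adjusted p = 0.0052).

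Ltbp4 ran from 430.5 through 522.5 to 645.2 CPM in air, from 265.5 through 418.5 to 521.6 CPM in silica, from 52.95 through 533.4 to 614.6 CPM in smoke, and from 348 through 366.4 to 393.7 CPM in the combined group. All 6 combined libraries lay below all 6 air libraries, and below the 5 smoke libraries other than smoke 2, whose lowest was 407.6 CPM. The combined libraries were also close to each other, with a coefficient of variation of 5.53% against 14.4% in air without air 6. Ltbp4 fell by 30.3% against air, a log2 difference of -0.52 ± 0.14 (adjusted p = 0.00668). Because air 6 is low for this gene, the difference was larger without it, at -0.58 ± 0.13 (adjusted p = 0.00227), and it was -0.57 ± 0.09 (adjusted p = 8.98e-06) at the 20-library setting. Eln and Ltbp4 were thus lower in the combined group with air 6 in or out, although air 6 is their highest and their lowest air library respectively.

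Efemp2, or fibulin-4, brings lysyl oxidase to tropoelastin. It ran from 17.13 through 21.65 to 25 CPM in air, from 14.35 through 21.67 to 23.96 CPM in silica, from 0 through 21.61 to 26.4 CPM in smoke, and from 19.98 through 27.57 to 31.77 CPM in the combined group. Of the combined libraries 4 lay above every air library. The log2 difference of combined from air was 0.28 ± 0.12 (95% interval 0.03 to 0.52, adjusted p = 0.107), and 0.34 ± 0.13 (adjusted p = 0.0557) without air 6. The gene passed the threshold, as higher, with weighted limma voom (adjusted p = 0.0403), without combined 1 (adjusted p = 0.0408) and at the 20-library setting (adjusted p = 0.0487).

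Emilin1 encodes a glycoprotein at the interface of elastin and microfibrils that also restrains TGF-beta processing. It ran from 80.59 through 86.02 to 143 CPM in air, from 64.58 through 79.57 to 98.39 CPM in silica, from 0 through 75.17 to 89.16 CPM in smoke, and from 83.54 through 98.17 to 125.5 CPM in the combined group. The combined and air ranges overlapped almost fully. The log2 difference between them was 0.00 ± 0.13 (95% interval -0.26 to 0.26, adjusted p = 0.999).

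Mfap4, a microfibril-associated glycoprotein of lung and vessel walls, had 3 counts over all 24 libraries, 1 in air 3 and 2 in combined 2. At this depth no comparison of Mfap4 was possible. A separate row of the table, LOC102553715, described there as a microfibril-associated glycoprotein 4-like gene and picked out after its values were seen, ran from 0 to 137.7 CPM and differed from air in no group (adjusted p = 0.287 in silica, 0.957 in smoke and 0.939 in the combined group). Whether reads of Mfap4 were counted there cannot be told from the table.

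Promoter windows of 5 of the 10 genes were found in a RefSeq table of build GRCr8, and the 3 below are shown because they set 2 assembly genes that fell in the combined group beside 1 that was not called. Each line gives the 250 bases before the annotated start, read 5′ to 3′ along the gene, for Fbln5 (chr6:126742707-126742956, minus strand), Ltbp4 (chr1:91759808-91760057, minus strand) and Efemp2 (chr1:212211472-212211721, plus strand). For these 3 genes and Fbn1 that start does not match the outer edge of the annotated gene, and for Loxl1 it does. Whether lung uses the starts shown was not tested. Capitals mark any match on either strand to GGGCGG, the core of a GC box, to TATAAA, to TGANTCA, an AP-1 type site, or to CAGAC, a Smad type element, and matches that overlap run together.
Fbln5: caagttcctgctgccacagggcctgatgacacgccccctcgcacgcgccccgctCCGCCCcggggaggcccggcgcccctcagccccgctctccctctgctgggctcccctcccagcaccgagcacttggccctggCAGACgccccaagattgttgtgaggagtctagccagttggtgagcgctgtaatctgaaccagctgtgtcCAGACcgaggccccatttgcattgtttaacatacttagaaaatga
Ltbp4: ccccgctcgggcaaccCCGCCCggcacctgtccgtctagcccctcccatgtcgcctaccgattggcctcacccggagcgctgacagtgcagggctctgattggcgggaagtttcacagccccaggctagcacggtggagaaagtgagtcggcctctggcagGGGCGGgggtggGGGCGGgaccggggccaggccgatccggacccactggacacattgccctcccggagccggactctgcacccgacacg
Efemp2: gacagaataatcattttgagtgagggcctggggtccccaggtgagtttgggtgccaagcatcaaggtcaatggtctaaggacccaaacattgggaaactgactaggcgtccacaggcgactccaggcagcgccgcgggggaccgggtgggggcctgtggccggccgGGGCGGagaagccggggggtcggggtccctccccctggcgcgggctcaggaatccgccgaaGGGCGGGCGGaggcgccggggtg
GGGCGG was found 1 time before Fbln5, 3 times before Ltbp4 and 3 times before Efemp2, where 2 of the matches overlap, and CAGAC 2 times before Fbln5 and 0 times before the other two. TATAAA and TGANTCA had no match in the 3 windows. Among 33469 RefSeq windows of 250 bases, 30.5% held GGGCGG, 42.9% CAGAC, 12.9% TATAAA and 6.34% TGANTCA. The windows were 63.2% G or C for Fbln5, 70.4% for Ltbp4 and 68% for Efemp2, where the median window had 51.2%. Of the other 2 members with a window, Fbn1 and Loxl1, neither held GGGCGG, and both were called lower with all 24 libraries. In these 5 windows GGGCGG did not separate the genes called lower from Efemp2.

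In combined against air, the crosslinking enzymes gave no call that held without air 6. Lox, the founding lysyl oxidase, ran from 68.86 through 81.08 to 208 CPM in air, from 60.99 through 81.1 to 102.8 CPM in silica, from 0 through 87.95 to 94.55 CPM in smoke, and from 60.43 through 81.58 to 95.3 CPM in the combined group. Its combined libraries split into 3 from 92.49 to 95.3 CPM and 3 from 60.43 to 70.67 CPM. The log2 difference from air was -0.33 ± 0.19 (adjusted p = 0.235) with air 6 and 0.06 ± 0.11 (adjusted p = 0.753) without it. Without air 6 and smoke 2, all 5 smoke libraries of Lox (84.74 to 94.55 CPM) lay above all 5 air libraries (68.86 to 84.65 CPM), as was the case for 0.886% of all genes tested, by a margin of under 0.1 CPM between smoke 3 and air 3. The test without air 6 gave a log2 difference of 0.19 ± 0.11 for smoke (adjusted p = 0.741).

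Loxl1 directs elastin crosslinking in adult tissue renewal. Loxl1 ran from 57.21 through 77.61 to 201 CPM in air, from 42.95 through 72.7 to 78.11 CPM in silica, from 0 through 72.04 to 97.82 CPM in smoke, and from 62.41 through 65.03 to 70.25 CPM in the combined group. The combined libraries lay below all air libraries other than air 5 and were close together, with a coefficient of variation of 4.25%. The log2 difference from air was -0.56 ± 0.21 (adjusted p = 0.0465) with all libraries, and -0.17 ± 0.12 (adjusted p = 0.375) without air 6 and -0.16 ± 0.11 (adjusted p = 0.32) at the 20-library setting. The call held in 8 of the 24 fits that left out 1 library, with adjusted p up to 0.375. Loxl2, which acts mainly on collagen IV, ran from 14.49 through 17.75 to 49.58 CPM in air, and from 13.32 through 17.02 to 21.91 CPM in the combined group. Its log2 difference was -0.48 ± 0.23 (adjusted p = 0.128), and -0.03 ± 0.14 (adjusted p = 0.939) without air 6.

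Silica alone and smoke alone gave no called member in the edgeR fit of all 24 libraries with the filter on low counts. The silica, smoke and combined groups were each set against the same 6 air libraries, so these comparisons are not independent of each other. In silica against air, edgeR called 0 of 9 members where 3.17% of all genes were called, while 7 of 9 had an unadjusted p under 0.05, DESeq2 called 0 and weighted limma voom called 1, which was Ltbp4 (adjusted p = 0.0274). Without the filter edgeR called 2, Eln (adjusted p = 0.0483) and Fbn1 (adjusted p = 0.0402). The log2 differences were -0.85 ± 0.26 for Fbn1 (adjusted p = 0.0673), -0.69 ± 0.22 for Eln (adjusted p = 0.0731) and -0.39 ± 0.14 for Ltbp4 (adjusted p = 0.116). Fbn1 and Eln shrank to -0.21 ± 0.09 and -0.30 ± 0.14 without air 6, whereas Ltbp4 stood at -0.44 ± 0.13 (adjusted p = 0.0816). At the 20-library setting, Ltbp4 (-0.51 ± 0.09, adjusted p = 0.000317) and Eln (-0.36 ± 0.12, adjusted p = 0.043) were called lower, where 4.78% of all genes were called lower. Silica 1, left out there for its low Mmp12, was the highest silica library for both, at 521.6 and 375.5 CPM. Those 2 calls therefore lean on the choice of libraries, as do the calls without silica 1 alone. Without silica 1 alone, edgeR called Eln (adjusted p = 0.0375), Ltbp4 (adjusted p = 0.0283) and Loxl2 (adjusted p = 0.0458). Without air 5 it called Eln (adjusted p = 0.0398), Fbn1 (adjusted p = 0.0314) and Loxl2 (adjusted p = 0.0426), and without air 3 Loxl2 (adjusted p = 0.0462). Each of these fits kept air 6, which was high for Eln, Fbn1 and Loxl2. Without air 6, Loxl2 stood at -0.30 ± 0.15 in silica (adjusted p = 0.339). The adjusted p was then 0.254 for Fbn1 and 0.268 for Eln.

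In smoke against air, edgeR called 0 of 9 members, where 0.15% of all genes were called. Here 4 members had an unadjusted p under 0.05, and DESeq2 and limma voom called 0. Eln had the largest log2 difference, -0.75 ± 0.22 (adjusted p = 0.269), or -0.36 ± 0.14 (adjusted p = 0.465) without air 6. Ltbp4 stood at -0.04 ± 0.14, with a 95% interval of -0.32 to 0.24. These intervals do not show that smoke left the genes as they were.

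**Figure D3:**
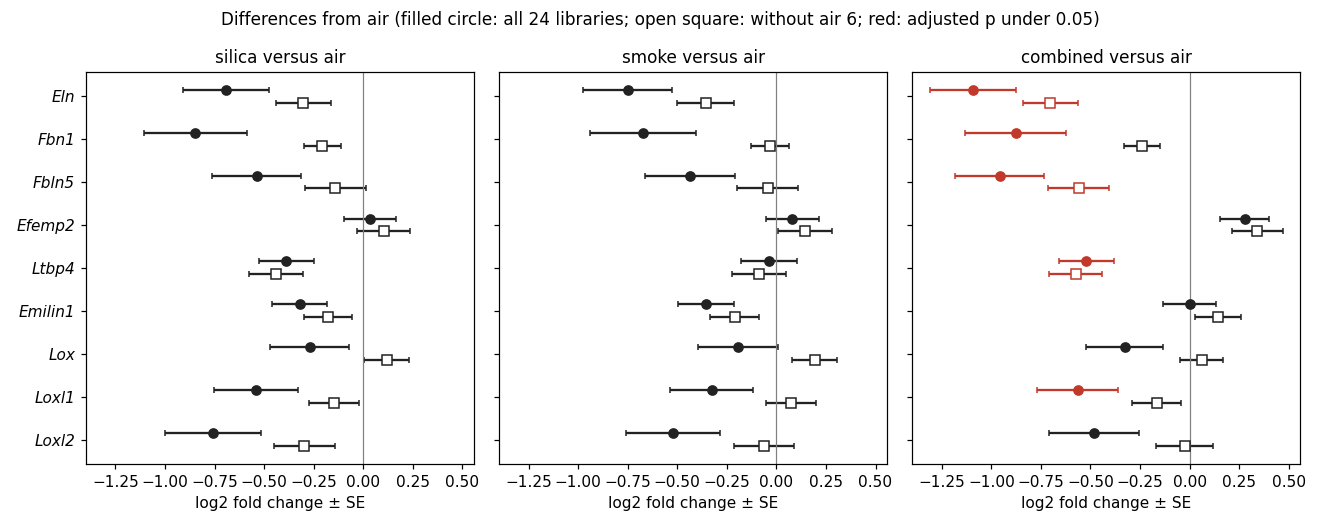
Log2 fold change from air with its standard error for the 9 tested members in silica, smoke and combined lungs, with all 24 libraries (filled circles) and without air 6 (open squares). Red marks an adjusted p under 0.05. Leaving out air 6 moves 8 of the 9 genes to the right in all 3 panels and Ltbp4 to the left, and Eln, Fbln5 and Ltbp4 are red at both settings in the combined panel.

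Combined lungs were also set against each single exposure. Against silica, edgeR called 0 of 9 members, where 0.248% of all genes were called. Emilin1 was the 1 member with an unadjusted p under 0.05, as had 1713 of the 13322 genes tested. DESeq2, with no adjusted p for Fbn1, and limma voom called 0. Without air 6, edgeR again called 0 members, where 0.851% of all genes were called. Unadjusted p was then 0.00616 for Eln, 0.00993 for Emilin1 and 0.0122 for Fbln5, with adjusted p of 0.14, 0.171 and 0.185. The values that follow are with all 24 libraries. The 4 smallest adjusted p belonged to log2 differences of 0.32 ± 0.14 for Emilin1 (adjusted p = 0.324), 0.24 ± 0.13 for Efemp2 (adjusted p = 0.432), -0.42 ± 0.24 for Fbln5 (adjusted p = 0.476) and -0.40 ± 0.22 for Eln (adjusted p = 0.449). For Ltbp4 the difference from silica was -0.13 ± 0.14, with a 95% interval of -0.41 to 0.14.

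Against smoke, 1 of 9 members was called, where 12.9% of all genes were called and 5.57% were called lower. This was Ltbp4, lower in combined lungs by a log2 difference of -0.48 ± 0.14 (adjusted p = 0.0247). Ltbp4 was the 1 member whose combined libraries all lay below the 5 smoke libraries left without smoke 2, as did those of 4.28% of all genes. The call was lost in 7 of 24 fits that left out 1 library, without smoke 3, 4, 5 or 6 or combined 2, 3 or 5, with adjusted p from 0.0508 to 0.0877. Without air 6, 2 members were called lower, Ltbp4 (-0.49 ± 0.13, adjusted p = 0.011) and Fbln5 (-0.52 ± 0.16, adjusted p = 0.0212), where 7.92% of all genes were called lower. At that setting Emilin1 was called higher (0.36 ± 0.12, adjusted p = 0.0366), where 9.19% of all genes were called higher. With air 6 the adjusted p was 0.162 for Fbln5 and 0.0968 for Emilin1, at nearly the same log2 differences. At the 20-library setting, 12% of all genes were called lower and 13.2% higher in combined against smoke. Ltbp4 (-0.59 ± 0.09, adjusted p = 1.52e-05), Fbln5 (-0.59 ± 0.16, adjusted p = 0.00561) and Fbn1 (-0.24 ± 0.08, adjusted p = 0.0322) were then called lower and Emilin1 (0.39 ± 0.12, adjusted p = 0.019) higher. Smoke 1, left out there for its Mmp12, was the lowest smoke library after smoke 2 for Ltbp4, Fbln5 and Fbn1.

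**Figure D4:**
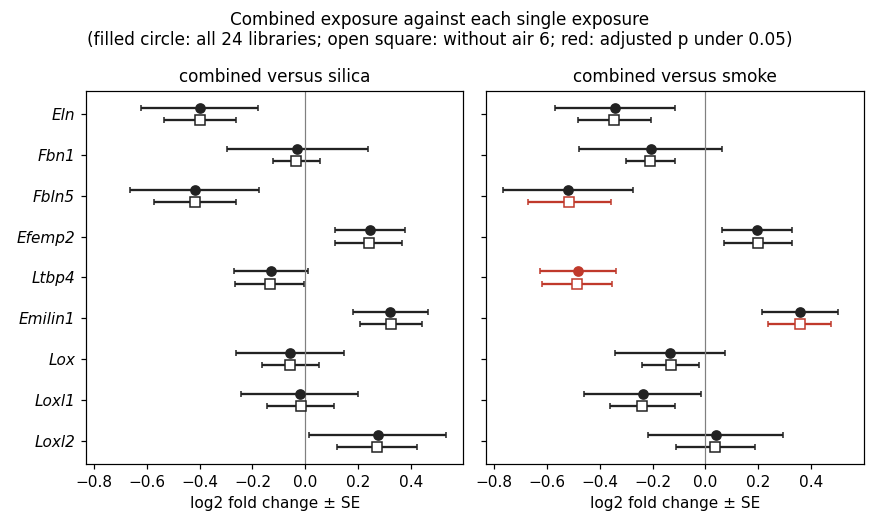
Log2 fold change of combined lungs from silica (left) and from smoke (right) with its standard error for the 9 tested members, with all 24 libraries (filled circles) and without air 6 (open squares). Red marks an adjusted p under 0.05. The points barely move when air 6 is left out, and the error bars shorten.

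The interaction compares the log2 effect of the combined exposure with the sum of the silica and smoke effects. EdgeR called 0 of 9 members and 0% of all genes, while 977 genes and 2 members had an unadjusted p under 0.05. DESeq2, with no adjusted p for Fbn1, and limma voom called 0 members. The 2 members were Emilin1, at 0.68 ± 0.20 (adjusted p = 0.393), and Loxl2, at 0.80 ± 0.35 (adjusted p = 0.651). Emilin1 had log2 differences of -0.32 ± 0.14 in silica (adjusted p = 0.203) and -0.36 ± 0.14 in smoke (adjusted p = 0.456), against 0.00 ± 0.13 in the combined group. Without air 6 its interaction was 0.53 ± 0.17 (adjusted p = 0.403), and at the 20-library setting 0.57 ± 0.17 (adjusted p = 0.179).

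The way the members varied together also depended on air 6. Over the 22 libraries of at least 1000000 counts, with each gene's group means subtracted, Pearson correlations of log2 CPM with Eln were 0.848 for Fbn1, 0.833 for Lox, 0.782 for Loxl1, 0.741 for Fbln5, 0.705 for Emilin1 and 0.606 for Loxl2. Efemp2 (0.117) and Ltbp4 (-0.169) stood apart. The genes most like Eln were Serpinh1 (0.876), Igfbp4 (0.872), Pcdh12 (0.869), Col4a2 (0.867) and Sparc (0.865). Over 21 libraries, without air 6, Emilin1 at 0.491 was the member most like Eln, and Fbn1 stood at 0.438. The closest genes were then Lck (0.81), Tprg1l (0.805), Fbxl12 (0.783), Bles03 (0.778) and Maf1 (0.766). These correlations describe differences between libraries within groups, which share depth and tissue sampling.

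Genes that act on or beside the fibre differed from air in the combined group in both directions. Among 14 other tested microfibril and elastic fibre genes, 7 were called lower and 1 higher, with a median log2 difference of -0.36. Of all genes tested, 10.8% were called lower and 11.6% higher, or 9.58% and 11.3% without air 6. Efemp1, or fibulin-3, fell by 0.80 on the log2 scale (SE 0.14, adjusted p = 0.000151), Ltbp1, which holds latent TGF-beta in the matrix, fell by 0.58 (SE 0.12, adjusted p = 0.000586), and Vtn, or vitronectin, fell by 0.71 (SE 0.15, adjusted p = 0.00108). Emilin2, an elastin-binding relative of Emilin1, rose by 1.3 (SE 0.229, adjusted p = 0.000165). Without air 6, 5 of the 14 were called lower and 1 higher, and these 4 genes were among them.

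Among 7 tested elastin-degrading proteases, 5 were called higher and 0 lower in the combined group against air, with and without air 6, at a median of 0.72. Of all genes tested, 11.6% were called higher in that comparison, and 11.3% without air 6. Mmp12 rose by 3.74 ± 0.53 on the log2 scale (adjusted p = 1.27e-05), from 2.31 to 17.9 CPM in air to 63.5 to 126.4 CPM in combined lungs. Ctsk, or cathepsin K, rose by 1.66 ± 0.25 (adjusted p = 2.82e-05), Ctss, or cathepsin S, by 1.02 ± 0.155 (adjusted p = 3.07e-05) and Mmp14, a membrane-bound collagenase, by 0.72 ± 0.14 (adjusted p = 0.000424). Against smoke the same 4 genes rose as well, Mmp12 by 2.31 ± 0.49 (adjusted p = 0.00315). Of all genes tested, 12.9% were called in combined against smoke and 5.57% were called lower. Without air 6, 9.19% were called higher. No 20-library value is given for Mmp12, because its levels in silica 1 and smoke 1 chose those libraries for removal. In silica against air, 2 of the 7 were called higher, Mmp12 (3.00 ± 0.56, adjusted p = 0.0033) and Ctss (0.66 ± 0.16, adjusted p = 0.0221), and in smoke 0 were called. Here 2.15% of all genes were called higher in silica. At the 20-library setting, where 6.62% were, 5 of the 7 proteases were called higher. That setting leaves out silica 1 and smoke 1 for their Mmp12, so it gives no separate evidence on the proteases. The call of Ctss in silica was lost without silica 3, 5 or 6 and with only the silica and air libraries in the model. The neutrophil proteases Elane, Prtn3 and Ctsg were too low to test, and are named after their values were seen.

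In combined against air, 11.6% of all genes tested were called higher and 10.8% lower, or 11.3% and 9.58% without air 6. Of 8 tested protease inhibitors, 3 were called higher and 0 lower in that comparison. They were Serpine2, or protease nexin-1 (1.44 ± 0.30, adjusted p = 0.000969), the cystatin Cst7 (0.91 ± 0.22, adjusted p = 0.00293) and Slpi, the leukocyte protease inhibitor of airways (1.41 ± 0.38, adjusted p = 0.00766). Of 9 genes of crosslinking, lysyl oxidase activation and copper supply, 2 were called higher and 2 lower. Without air 6 these counts were 1 and 1, since Bmp1, which activates lysyl oxidase and was called higher (adjusted p = 0.0474), and Postn, a matricellular protein called lower (adjusted p = 0.0172), were lost (adjusted p = 0.0719 and 0.074). The call of Bmp1 was also lost in many other fits that left out 1 library. The copper importer Slc31a1 rose by 0.68 ± 0.15 (adjusted p = 0.00158), and Tll1, a protease of the family that activates lysyl oxidase, fell by 0.71 (SE 0.165, adjusted p = 0.00219), a call that DESeq2 did not make. Of 10 receptor genes, 4 were called higher and 2 lower, and Ctsa (0.66 ± 0.12, adjusted p = 0.000224) and Glb1 (0.62 ± 0.12, adjusted p = 0.000373), subunits that form the elastin receptor and also work in lysosomes, were among those higher. Of 10 growth factor and mediator genes, 1 was called higher and 2 lower. Pdgfra, the receptor that marks elastin-producing alveolar fibroblasts, fell by 0.66 on the log2 scale (SE 0.10, adjusted p = 4.28e-05).

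**Figure D5:**
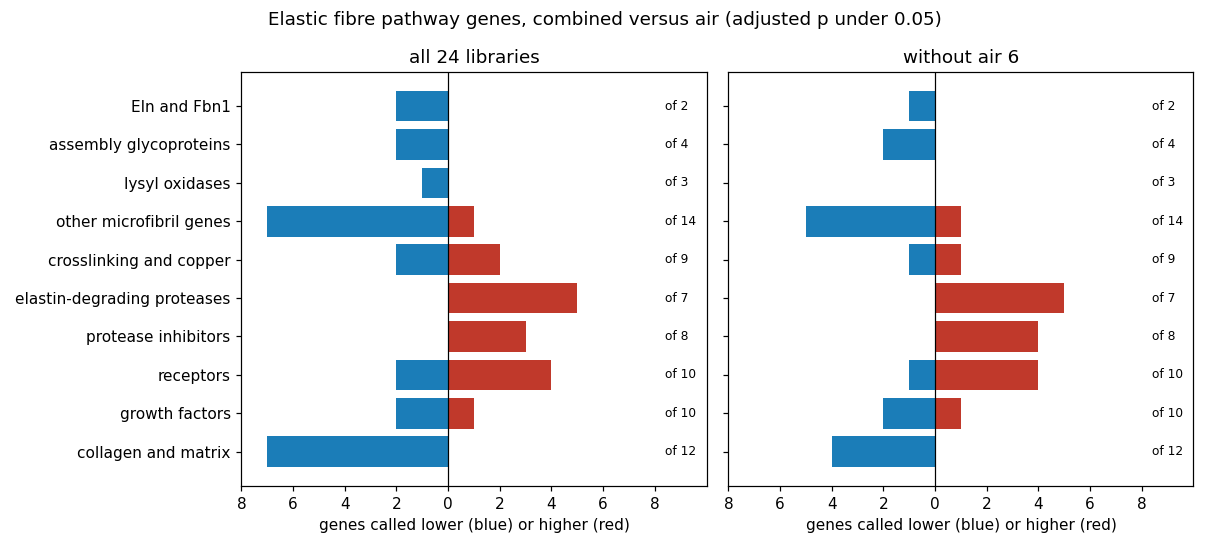
Number of genes called lower (blue, to the left) or higher (red, to the right) in combined lungs against air for the 3 groups of members and 7 lists, with the number of genes tested at the right of each bar. With all libraries (left panel) the other microfibril genes count 7 lower and 1 higher and the proteases 5 higher, and without air 6 (right panel) they count 5 and 1, and 5.

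Markers of several cell types also shifted between combined and air lungs. The share of all genes called lower was 10.8% with air 6 and 9.58% without it, and the share called higher was 11.6% and 11.3%. Of 12 collagen and general matrix genes, 7 were called lower with air 6 and 4 without it. Called lower with all 24 libraries were 6 of 10 lung fibroblast markers, 5 of 7 pericyte, 5 of 8 endothelial, 3 of 8 smooth muscle and 2 of 7 mesothelial markers, and none of these was called higher. Pdgfra, Mfap5 and Postn stand on a fibroblast or pericyte list and on a list given above. Without air 6 these counts were 3, 4, 5, 2 and 6. Over all listed genes in the table, summed levels in combined and air lungs were 722 to 871 and 977 to 1364 CPM for fibroblast, 3006 to 3319 and 3919 to 4933 CPM for endothelial, 604 to 730.3 and 794 to 1643 CPM for pericyte, 356 to 487 and 444 to 1298 CPM for smooth muscle, and 77.7 to 230.4 and 103 to 484 CPM for mesothelial markers. Alveolar epithelial markers summed to 25690 to 29910 CPM in combined and 14580 to 22490 CPM in air lungs, with 4 of 10 called higher and 2 lower. Macrophage markers summed to 638 to 737 and 439 to 734 CPM, with 1 of 4 called higher and 1 lower. None of 6 cartilage markers was high enough to test, and Col2a1 and Matn1, named after their values were seen, were at 0 in all 24 libraries. The part of these shifts in the lower Eln, Fbln5 and Ltbp4 was not tested, and fewer cells of a type and less RNA per cell cannot be told apart.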

How the data were processed

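Whole-number counts per gene in 24 lung libraries were deposited by the authors as 1 unnormalised table. Per the labels' protocols, libraries were made from total RNA after ribosomal RNA depletion with a stranded kit. The submitters' processing notes name HISAT2 2.1.0, HTSeq 0.11.2, SAMtools 1.8, Trimmomatic 0.35, bcl2fastq 2.19 and Cufflinks. No build, annotation or strand setting is given in the sources read, which leaves overlapping and antisense genes uncertain. Of 30069 lines, 26 that repeated another were removed.

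Genes were kept by filterByExpr (minimum count 10), scaled by TMM and fitted with edgeR 4.0.16 in R 4.3.3 (quasi-likelihood test, 1 coefficient for each group, all 24 libraries; 20 residual degrees of freedom). P-values were two-sided and Benjamini-Hochberg adjusted over 13322 genes, and under 0.05 was called. Standard errors were derived from the log2 fold change and the F statistic. The script was tested on simulated data. No pair of libraries of a group agreed within sampling noise (chi-square at least 1.73 per degree of freedom), so all 24 were kept as separate rats, as the labels give them. CPM are per 1000000 counts of tested genes, scaled by TMM. Levels were not compared between genes, since no transcript lengths were used. Alternatives used DESeq2 1.42.0, limma 3.58.1, other scaling, no filter and fewer libraries. Floors of 3 counts are per 1000000 of all counts of a library, without TMM scaling, and cover counting error only.

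The genes, the lists and the naming rule were chosen with earlier results of these data known. All 9 tested members are named. From each pathway list up to 4 called genes with the smallest p per comparison could be named, and the closest genes to Eln are the 5 with the highest Pearson correlation of log2 CPM (prior count 2), centred on group means, over libraries of at least 1000000 counts.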

Additional observations from a re-analysis of the deposited data

Results flagged for a closer look

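Of 36 gene-by-group sets of 6 values, 17 held a library whose gap to its nearest neighbour was large against the range of the group. Chance flags about 1 in 20 groups, and 15 of the 17 came from 2 libraries. Air 6 was the far highest air library for Eln (1088 CPM), Fbn1 (923.5 CPM), Fbln5 (101.8 CPM), Lox (208 CPM), Loxl1 (201 CPM) and Loxl2 (49.58 CPM). Smoke 2 was the far lowest smoke library, at 52.95 CPM for Fbn1 and Ltbp4, each 1 count, and at 0 for Eln, Fbln5, Efemp2, Emilin1, Lox, Loxl1 and Loxl2, in a library where 3 counts stand at 138.7 CPM. Silica 4 was the lowest silica library for Efemp2 at 14.35 CPM, in the second shallowest library. Silica 5 was the lowest silica library for Loxl1 at 42.95 CPM, in a library of 3333334 counts.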

How the results depend on the processing

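Outside silica 4 and smoke 2, 3 counts stood at 0.64 to 2.765 CPM, so depth limited mainly those 2 libraries and Mfap4. In combined against air, the sign of all 9 tested members but Emilin1 and Lox was the same under every setting run. No fit pairs rats, since the labels give no shared replicate numbers. The cause of the changes below was not tested.

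Members called. In silica against air 2 were called with no filter, 1 with limma voom and 2 without air 6, silica 1, smoke 1 and smoke 2 (the 20-library setting below), and leaving out 1 library gave 0 to 3. In combined against air 3 were called with DESeq2 and 3 with only the 2 groups in the model, and leaving out 1 library gave 3 (air 6) to 5. In combined against smoke 3 were called with only the 2 groups, 3 with limma voom and 4 with the 20-library setting, and leaving out 1 library gave 0 to 3.

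Genes called. Silica against air gave 189 with DESeq2, 91 with only the 2 groups, 909 with limma voom and 1541 with the 20-library setting, and 124 (silica 5 out) to 1183 (silica 1 out). Smoke against air gave 5, 72 and 98 with only the 2 groups, limma voom and the 20-library setting, 12 without silica 4 and smoke 2, and 6 to 42 leaving out 1 library. Combined against air gave 1665 with DESeq2. Combined against silica gave 100, 116, 111 and 58 with only the 2 groups, limma voom, the 20-library setting and without silica 4 and smoke 2, and 16 (silica 1 out) to 113 (air 6 out). Combined against smoke gave 823 with DESeq2, 3368 with limma voom and 3402 with the 20-library setting, and 905 (smoke 3 out) to 2271 (air 6 out). The interaction gave 1 with DESeq2, 9 with limma voom and 19 with the 20-library setting.

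Signs that turned, in log2 differences, none of them called at the setting that turned it. Silica against air, Lox was 0.0475 with limma voom and 0.0491 with the 20-library setting, and leaving out 1 library gave -0.351 to 0.118 for Lox and -0.0271 to 0.102 for Efemp2. Smoke against air with the 20-library setting, Fbn1 was 0.006, Fbln5 0.0431, Ltbp4 0.0232, Lox 0.171 and Loxl1 0.132, and with limma voom Lox was 0.145 and Loxl1 0.0276. Leaving out 1 library gave -0.107 to 0.0331 for Ltbp4, -0.276 to 0.192 for Lox and -0.438 to 0.0722 for Loxl1. Combined against air, Emilin1 was -0.0142 with RLE scaling, -0.00744 with DESeq2, -0.00447 with no filter, -0.000669 with only the 2 groups and -0.0716 to 0.145 leaving out 1 library, and Lox was 0.0243 with limma voom, 0.064 with the 20-library setting and -0.405 to 0.0605 leaving out 1 library. Combined against silica, the 20-library setting gave 0.0149 for Lox and 0.0459 for Loxl1, and leaving out 1 library gave -0.112 to 0.0179 and -0.152 to 0.0387 for them and -0.0798 to 0.0212 for Fbn1. Combined against smoke, Loxl2 was -0.0161 with the 20-library setting and -0.048 to 0.113 leaving out 1 library.

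For the interaction, the 20-library setting gave -0.025 for Fbn1, -0.421 for Fbln5, -0.156 for Lox and -0.0856 for Loxl1. Limma voom gave -0.373 for Fbln5, -0.168 for Lox and -0.0602 for Loxl1, and leaving out silica 4 and smoke 2 gave -0.0265 for Fbln5. Leaving out 1 library gave -0.0433 to 0.438 for Eln, -0.00161 to 0.753 for Fbn1, -0.373 to 0.147 for Fbln5, -0.25 to 0.222 for Lox and -0.0898 to 0.418 for Loxl1, and each of these 5 turned without air 6.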
